A study of Harpegnathos saltator with 47 samples.

Results

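Among 12 gamergates of the ant Harpegnathos saltator, 8 carried the transcript Hsal_10714 in the brain at 3 RPKM or more and 4 did not reach that level. RPKM is a read count scaled by transcript length and by the depth of the library. The 8 are called high gamergates here and the 4 low gamergates. Their brains were compared with each other, and then each set was placed beside the 21 workers of the same series of 33 ants. The split is a division inside 1 caste: the level of Hsal_10714 chose the members of both sets, so its own difference is a description without a test. Whether anything else in the brain changed with it was the question put to the other rows.

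Gamergates are workers that have mated and lay eggs. In this species, when the reproductives are lost, workers duel with their antennae, and the winners activate their ovaries, stop hunting and take over reproduction. They keep the body of a worker, so the castes differ in physiology and behaviour and in the genes that the brain uses. Neuropeptides and yolk proteins are known for caste-linked expression in Harpegnathos, but the IDs in the deposited tables are not paired with gene names in the sources used here, so rows are given by ID and no function is assigned to them.

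High and low gamergates shared the labelled origin, scoring and day, though not all run dates. They were females moved to a new nest with males soon after eclosion, watched for dueling and scored by ovaries and hunting. They were collected on day 120 as egg-laying gamergates of transition nests. The 11 transition workers came from the same kind of nest and the same day and were scored as workers. The 10 stable workers came from stable colonies and carry the same day in their labels. Each library was polyA RNA of 1 brain without the optic lobes, and the labels do not tie ants to nests: the p-values rest on the spread among these ants, some of which may be nestmates. No gene that marks neurons, glia or another tissue could be looked up by name, and the labelled tissue was therefore not checked against markers.

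Hsal_10714 was read at 42.7 RPKM in gamergate 2, 51.1 in gamergate 3, 174 in gamergate 4, 63.5 in gamergate 6, 6.16 in gamergate 7, 28.2 in gamergate 8, 525 in gamergate 10 and 85.1 in gamergate 12. The low gamergates had 0.795 RPKM in gamergate 1, 0.421 in gamergate 5, 0 in gamergate 9 and 1.29 in gamergate 11. All 8 high gamergates lay above all 21 workers, and 0 of the 4 low gamergates lay above every worker. Transition workers ran from 0 to 0.799 RPKM with a median of 0.308, and stable workers from 0 to 1.80 RPKM with a median of 0.263. In whole reads recovered from the RPKM values, the high set had between 45 and 4703 reads of this transcript and the low set between 0 and 14.

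**Figure D1:**
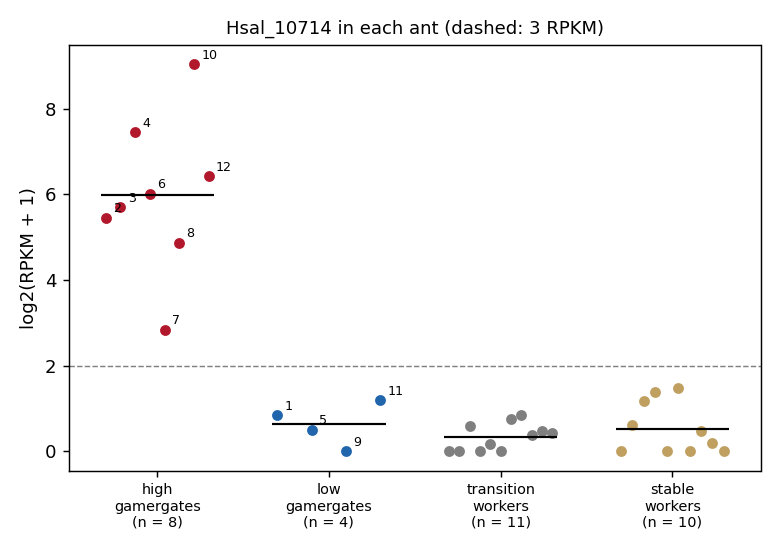
Level of Hsal_10714 on the log2(RPKM + 1) scale (vertical axis) in each ant of the 4 sets (horizontal axis). Points are ants, numbers are the gamergates, bars are means, and the dashed line is the division at 3 RPKM. Gamergate 7 at 6.16 RPKM is the closest ant above the line and gamergate 11 at 1.29 RPKM the closest gamergate below it.

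The high set was itself uneven. Its mean was 122 ± 171 RPKM (SD, n = 8), so the spread between ants exceeded the mean, and gamergate 10 alone stood above 174 RPKM. The low mean of 0.626 ± 0.548 RPKM (SD, n = 4) was close to that of the stable workers, 0.573 ± 0.713 RPKM (SD, n = 10). In a bulk brain sample, fewer cells that carry a transcript and less of it per cell cannot be told apart.

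Both kinds of gamergate occurred in each of the 3 sequencing batches, read from the run dates. Every ant of batch C was run on 2 dates and every ant of batches A and B on 1. Batch A had 1 high and 1 low gamergate, batch B 4 high and 1 low, and batch C 3 high and 2 low. Depth overlapped: high gamergates had 4685633 to 11159675 reads in genes (median 7627791) and low gamergates 6098302 to 10550381 (median 8526110), and an exact permutation of the high and low labels within batches gave two-sided p = 0.6 (adjusted over 4 library measures, 0.8). The share of rRNA among reads had medians of 0.879% in high and 1.38% in low gamergates (p = 0.9 in the same exact permutation test). The 10 most abundant rows took 7.69% to 11.5% of the reads in high and 7.85% to 8.11% in low gamergates (batch-weighted difference 1.499 percentage points, exact permutation p = 0.1, adjusted 0.4). The smallest p that the 100 arrangements within batches allow is 0.01.

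No row passed limma's adjusted p under 0.05 between the brains of high and low gamergates. With limma on log2(RPKM + 1) and batch as a term, 0 of 11233 rows passed (0% called), and the smallest adjusted p was 0.494. At an unadjusted p under 0.05 there were 409 rows, 3.64% of those tested, of which 171 (1.52%) were higher in high gamergates and 238 (2.12%) lower. This is a smaller share than a threshold of 0.05 gives by chance. On the recovered reads, limma's voom called 0 rows (454 at an unadjusted p under 0.05). The tools did not all give 0: of the count models tried on the same reads, edgeR called none, but DESeq2 called some rows, nearly all of them higher in high gamergates. The values of edgeR and DESeq2 are not given here. The deposited unit is RPKM and not counts, a limit that voom shares. The median difference over all rows was -0.01 on the log2 scale, with 47.5% of rows higher and 52.5% lower in high gamergates. The difference had 1 sign in all 3 batches in 1017 rows that were higher (9.05%) and 1399 that were lower (12.5%). Together these are a smaller share than random signs, independent between batches, would give.

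The rows named next were taken from those with 1 sign in all batches, by the smallest unadjusted p. They are given as levels and differences, and none of them passed limma's adjusted test between the 2 sets of gamergates.

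The row with the smallest unadjusted p was Hsal_01632. It ran from 5.76 to 67.3 RPKM in high gamergates, with a median of 19.2, and was at 0 in gamergate 1, 1.63 in gamergate 5, 2.88 in gamergate 9 and 1.49 in gamergate 11. The sets did not overlap, and the difference was 3.31 log2 units (SE 0.52, limma unadjusted p = 4.40e-05, adjusted p = 0.494). Its sign was equal in all 3 batches by the choice of rows, with 2.78 in A, 2.82 in B and 3.85 in C. Workers covered the levels of both sets: transition workers ran from 0.546 to 69.0 RPKM and stable workers from 0 to 36.9 RPKM.

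Hsal_03536 had 1.93 RPKM in gamergate 7 and 9.03 to 141 RPKM in the other high gamergates, against 0.640, 0, 1.22 and 0.493 RPKM in low gamergates 1, 5, 9 and 11. No low gamergate reached the lowest high one, and the difference was 4.09 log2 units (SE 0.73, unadjusted p = 0.000129, adjusted p = 0.654). Transition workers had 0 to 4.59 RPKM with a median of 2.30, above every low gamergate and above gamergate 7. Stable workers had 0 to 4.17 RPKM with a median of 0.581. The high gamergates other than gamergate 7 lay above every worker.

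Hsal_09096.2 was among the most abundant transcripts of some brains. High gamergates had 394 to 4721 RPKM, with a median of 1240 RPKM, and low gamergates had 7.46, 669, 99.7 and 35.8 RPKM in gamergates 1, 5, 9 and 11. Gamergate 5 lay inside the high range, above gamergates 2 and 3, and the other low gamergates lay below it. The difference of 3.84 log2 units (SE 0.74, adjusted p = 0.654) was 5.55 in batch A and 4.81 in batch C but 1.33 in batch B, the batch of gamergate 5. This transcript took 0.215% to 2.58% of all reads in genes in high gamergates and 0.00407% to 0.365% in low gamergates, while 1 transition worker had 1873 RPKM of it.

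Hsal_04477 was likewise abundant, at 176 to 1481 RPKM in high gamergates (median 892) and 13.5, 152, 158 and 79.7 RPKM in low gamergates 1, 5, 9 and 11. Every high gamergate lay above every low one, by a difference of 2.76 log2 units (SE 0.53, adjusted p = 0.654). Transition workers spanned 10.1 to 1911 RPKM and stable workers 34.2 to 1210 RPKM, so levels of either set occurred among workers.

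Hsal_04029 and Hsal_01177 were further rows with large differences and overlap. Hsal_04029 had 4.75 to 65.5 RPKM in high and 1.15 to 9.51 RPKM in low gamergates, a difference of 2.28 log2 units. Hsal_01177 had 3.91 to 33.3 RPKM in high and 0.584 to 5.62 RPKM in low gamergates, a difference of 1.73 log2 units. The other 4 rows named on this side, Hsal_06599, Hsal_00829, Hsal_03959 and Hsal_10364, were moderately abundant rows with differences between 0.50 and 0.77 log2 units. For Hsal_00829 the high gamergates had 117 to 168 RPKM and the low ones 60.8 to 109 RPKM, without overlap, inside the 51.5 to 201 RPKM of the transition workers.

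**Figure D2:**
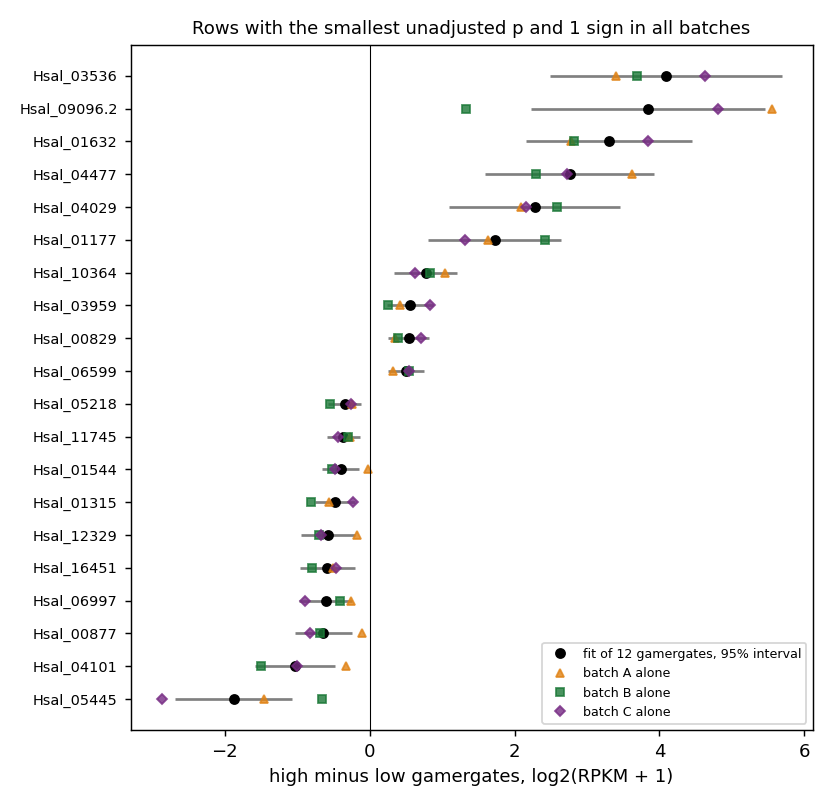
Difference between high and low gamergates on the log2(RPKM + 1) scale (horizontal axis) for the 10 rows named on each side (vertical axis). Black points and grey lines are the fit of 12 gamergates with its 95% interval, and triangles, squares and diamonds are the differences inside batches A, B and C. The rows were picked by small p and equal sign in the batches, so their distance from 0 is not a finding. By size, the 5 largest differences are on the higher side, followed by Hsal_05445 at -1.88.

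On the lower side the largest difference belonged to Hsal_05445, which the authors' deposited table also calls lower in gamergates than in transition workers (log2 difference -1.81, adjusted p = 7.07e-07). High gamergates had 14.5 to 98.1 RPKM with a median of 48.2, and low gamergates had 41.3, 114, 225 and 248 RPKM in gamergates 1, 5, 9 and 11. Low gamergates 5, 9 and 11 lay above all high ones, gamergate 1 lay among them, and the difference was -1.88 log2 units (SE 0.37, adjusted p = 0.654). Transition workers had 114 to 656 RPKM (median 323) and stable workers 164 to 596 RPKM, so low gamergates 9 and 11 were inside the worker range and gamergate 5 at its lower edge.

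Hsal_04101 was the other row on this side beyond 1 log2 unit, with 5.17 to 14.7 RPKM in high and 13.1 to 24.9 RPKM in low gamergates (-1.02 log2 units, adjusted p over 0.99 as for the 8 rows that follow). The remaining 8 rows, Hsal_01315, Hsal_06997, Hsal_01544, Hsal_00877, Hsal_11745, Hsal_12329, Hsal_16451 and Hsal_05218, had differences between -0.64 and -0.35 log2 units. In Hsal_05218 the low gamergates were close to each other at 57.94 to 59.98 RPKM, above all of the high gamergates at 33.8 to 55.4 RPKM. Workers again covered both, with 23.1 to 122 RPKM in transition workers.

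Counted over the whole table, 13 rows (0.116%) were higher in all 8 high than in all 4 low gamergates and 6 rows (0.0534%) were lower in all of them. There are 495 ways to choose 8 of 12 ants. Among 11233 rows some therefore separate fully under arbitrary labels, and the counts are a description. Of the 19 rows without overlap, 5 are among the rows named on the higher side, and 2 of the lower ones, Hsal_05218 and Hsal_08533, are named as well. Outside that choice, and picked after its values were seen, Hsal_07870 averaged 4.97 ± 4.18 RPKM in high gamergates (SD, n = 8) and 0.250 ± 0.199 RPKM in low gamergates (SD, n = 4), with workers at 0.174 ± 0.0935 RPKM in transition nests (SD, n = 11). It passed limma's fit of all 33 ants (1.96 log2 units between high and low gamergates, adjusted p = 0.00309), as did Hsal_03536 (3.91 log2 units, adjusted p = 0.00942). Neither row passed the fit of the 12 gamergates. The larger fit takes 1 spread per row from all 4 sets, and workers varied far less than high gamergates in both rows. For Hsal_03536 the SD was 45.5 RPKM in high gamergates and 1.80 RPKM in transition workers. These 2 p-values therefore do not measure the spread of the gamergates compared.

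Low gamergates were not uniform in rows that separate the castes. Hsal_09095.2, lower in gamergates than in transition workers in the authors' deposited table (log2 difference -1.64), lay between 3.93 and 9.06 RPKM in the 8 high gamergates, and low gamergates 1 and 5 had 4.82 and 4.35 RPKM, inside that range. Low gamergates 9 and 11 had 22.5 and 47.0 RPKM, inside the 10.5 to 72.1 RPKM of transition workers and above every high gamergate. Low gamergates 1 and 5 were thus at the level of high gamergates and 9 and 11 at that of workers.

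The same division held for Hsal_04952, which is higher in gamergates in the authors' deposited table (log2 difference 1.34). It had 54.1 to 212 RPKM in high gamergates, 149 and 121 RPKM in low gamergates 1 and 5, and 43.2 and 28.7 RPKM in low gamergates 9 and 11. The last pair lay below every high gamergate and inside the 26.9 to 80.4 RPKM of transition workers. The average differences of these rows between high and low gamergates, 0.91 (SE 0.45) for Hsal_04952 and -0.84 (SE 0.41) for Hsal_09095.2, rested on batch C, where they were 2.11 and -2.08, and were -0.42 and -0.24 in batch A and -0.063 and 0.65 in batch B. Without gamergates 9 and 11 they were -0.20 and 0.31. For Hsal_09889, a row that is highest in stable workers, high gamergates had 23.8 to 51.5 RPKM, low gamergates 20.2 to 28.0 RPKM and stable workers 46.8 to 136 RPKM (difference 0.59 log2 units between high and low, adjusted p over 0.99).

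**Figure D3:**
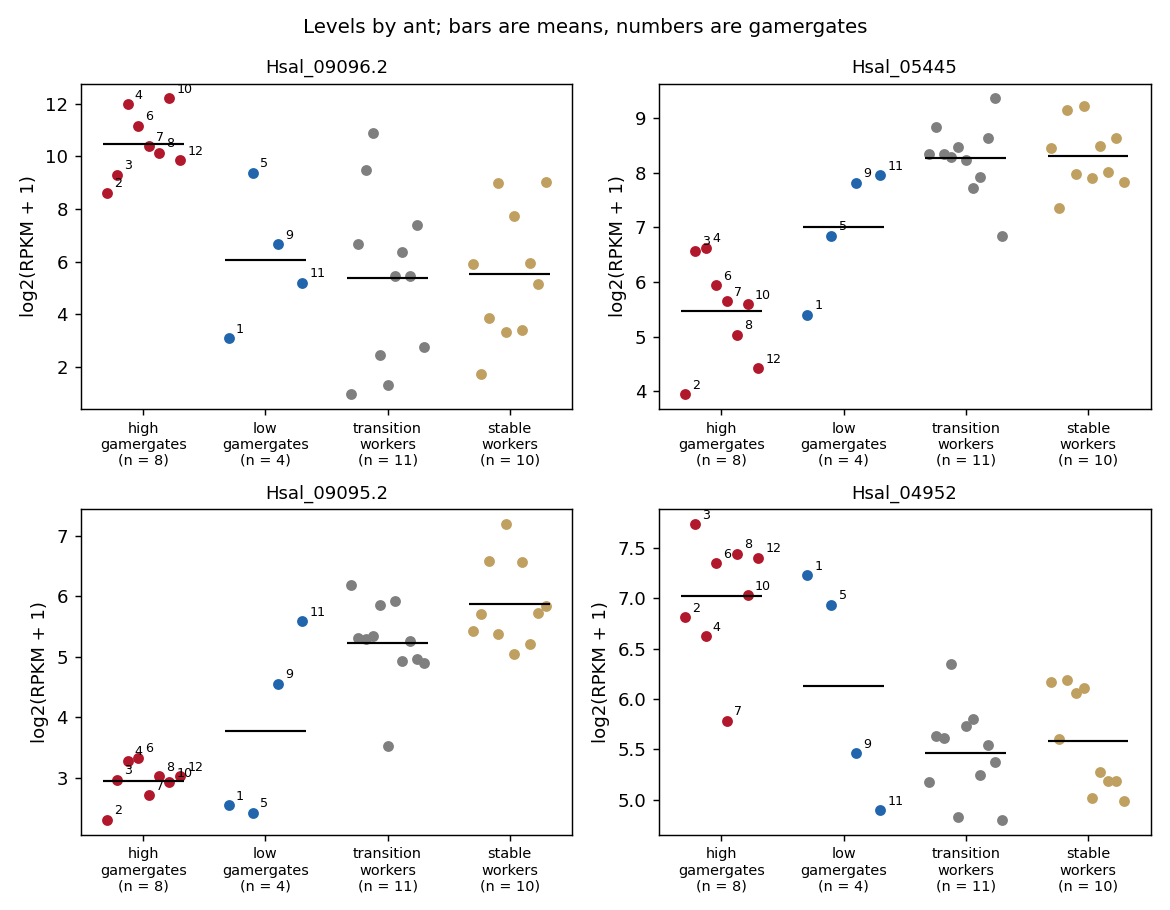
Levels of 4 rows on the log2(RPKM + 1) scale (vertical axes) in each ant by set (horizontal axes). Points are ants, numbers are gamergates, and bars are means. Low gamergates 9 and 11 sit in the range of the workers for Hsal_09095.2, Hsal_04952 and Hsal_05445. Low gamergates 1 and 5 sit with the high gamergates for Hsal_09095.2 and Hsal_04952, and for Hsal_09096.2 gamergate 5 is the highest of the low set.

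Over the 66 tested rows that the authors' deposited table calls different between gamergates and transition workers, without Hsal_10714, gamergate 11 was nearer to the median of the transition workers than to that of the high gamergates in 48 rows (72.7%) and gamergate 9 in 37 rows (56.1%). Gamergate 1 was nearer to the workers in 12 rows (18.2%) and gamergate 5 in 16 (24.2%), inside the range of 7 to 25 rows among the high gamergates themselves. These rows were chosen by the authors on the same ants, high gamergates included, so the count places the ants and is not independent evidence of caste. Gamergates 9 and 11 were also the only low gamergates of batch C. The high gamergates of that batch, 8, 10 and 12, were nearer to the workers in 15, 7 and 15 rows. Why gamergates 9 and 11 stood apart was not tested.

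The same lists averaged over ants gave small differences. The authors chose these rows on the same ants, high gamergates included. Rows raised or lowered in the high set alone could enter a list, so the counts are a description. Of 30 tested rows that the authors' deposited table calls higher in gamergates, 29 were higher in high than in low gamergates (median 0.33 log2 units, background 47.5% higher and median -0.01), and 0 passed the adjusted test. The median was 0.06 without gamergates 9 and 11. Of the 36 rows that the authors' deposited table calls higher in transition workers, 26 were lower in high gamergates (median -0.20, and 0.06 in batch B alone; background 52.5% lower).

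Rows of structural and small RNA were also counted. The libraries were polyA RNA, so these values are not read as the levels of such RNA in the brain. The 32 tested rRNA rows had 22 higher and 10 lower in high gamergates (median 0.40 log2 units), the 34 tRNA rows 18 and 16 (0.09), the 14 snRNA rows 11 and 3 (0.33) and the 9 miRNA rows 2 and 7 (-0.22). No row of these lists passed the adjusted test. The miRNA median was above 0 in 3 of 28 alternative settings, and highest when batch C was fitted by itself (0.09). The tRNA median was below 0 in 3 of 28, among them without the batch term (-0.09) and without gamergate 9 (-0.12). The median level of the rRNA rows had an SD of 1.14 log2 units among the 8 high gamergates and that of the snRNA rows 0.969, more than the differences between the sets. That of the tRNA rows had an SD of 0, so it did not vary among these ants. The rRNA share of reads had the lower median in high gamergates.

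Set beside the transition workers, the 2 kinds of gamergate gave different numbers of rows, with unequal numbers of ants behind them. High gamergates minus transition workers, from 8 and 11 ants in the fit of all 33, had 39 rows at an adjusted p under 0.05 (0.347% called), 25 higher (0.223%) and 14 lower (0.125%), and 941 rows (8.38%) at an unadjusted p under 0.05. Low gamergates minus transition workers, from 4 and 11 ants, had 0 rows (0% called, smallest adjusted p 0.967) and 362 rows (3.22%) at an unadjusted p under 0.05. Both comparisons use the same transition workers, and a set of 4 ants gives larger errors than a set of 8. The fit takes 1 spread per row from all 33 ants, also in rows where high gamergates varied far more than workers. The count of 39 rows was 19 without gamergate 8 or without gamergate 10, and was 63 without transition worker 10. With a further term for the replicate number it was 4, although the labels tie no number to a shared nest or day.

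Some of the 39 rows averaged far above transition workers in high gamergates and close to them in low ones. Hsal_02046 averaged 72.2 ± 82.6 RPKM in high gamergates, 1.49 ± 1.63 RPKM in low gamergates and 0.885 ± 1.84 RPKM in transition workers (SD, n = 8, 4 and 11). Hsal_09540 averaged 22.7 ± 29.2 RPKM, 0.425 ± 0.722 RPKM and 0.377 ± 0.820 RPKM in the same order of sets. Against transition workers the high set differed by 4.08 log2 units for Hsal_02046 and 3.05 for Hsal_09540 (adjusted p = 0.00333 for both), and the low set by 0.39 and -0.01.

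Others stood near each other in both sets. Hsal_09613 averaged 4.55 ± 2.11 RPKM in high and 5.38 ± 4.21 RPKM in low gamergates, with 15.6 ± 9.54 RPKM in transition workers, so the differences from workers were -1.51 (SE 0.34, adjusted p = 0.0409) in the high set and -1.39 (SE 0.43, adjusted p = 0.967) in the low set. Hsal_11723 differed from transition workers by 1.00 (SE 0.22) in the high set and 0.84 (SE 0.28) in the low set. For Hsal_05445 the differences were -2.84 (SE 0.33, adjusted p = 7.30e-06) in high and -1.17 (SE 0.42, adjusted p = 0.967) in low gamergates.

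Of the 39 rows, 35 had the same sign in low gamergates, and all 39 had a smaller difference there, with a median size of 1.00 log2 units in the high set and 0.34 in the low set. Because the rows were picked for passing in the high set, their values there are on average too large, and the smaller ones in the low set are not a test of a difference. The direct comparison of high with low gamergates, given above, is that test.

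**Figure D4:**
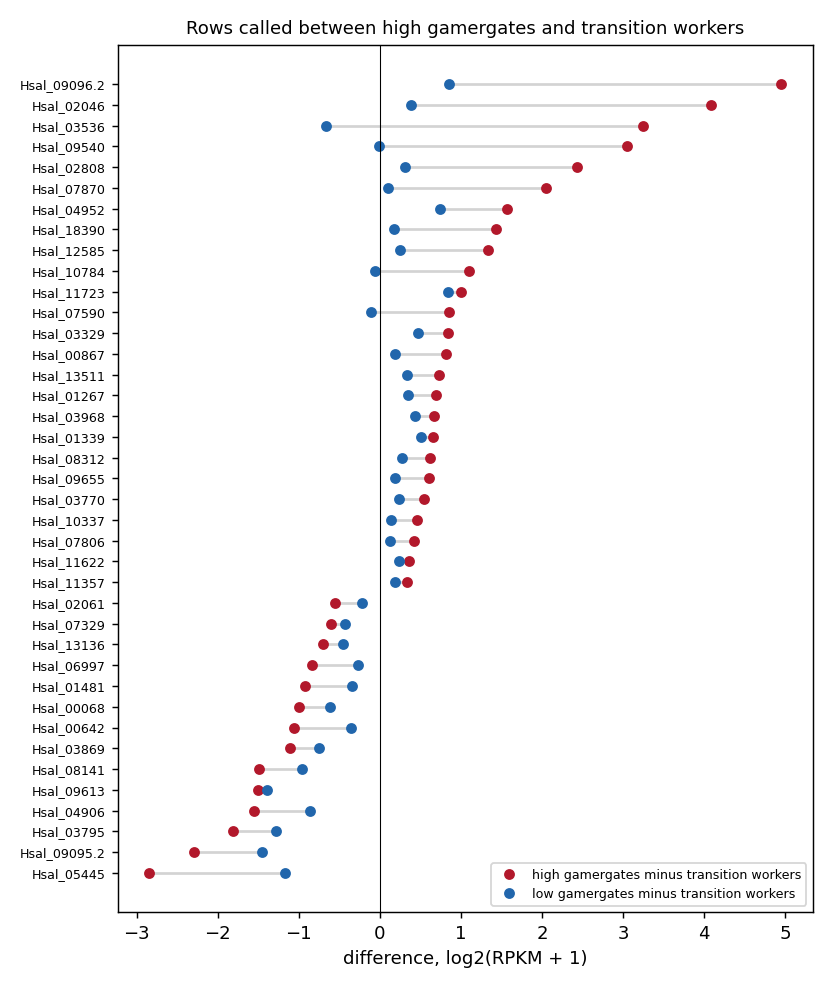
Difference from transition workers on the log2(RPKM + 1) scale (horizontal axis) for the 39 rows called between high gamergates and transition workers (vertical axis). Red points are high gamergates (n = 8) and blue points low gamergates (n = 4), each against the same 11 transition workers. Red points lie farther from 0 in all 39 rows, which were selected by the red values. Blue points are much nearer 0 than the red ones for Hsal_02046, Hsal_09540, Hsal_02808 and Hsal_07870 but near the red ones for Hsal_11723 and Hsal_09613.

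Among rows with a mean of 5 RPKM or more over the gamergates, those ranked most like Hsal_10714 by Spearman's correlation over the 12 ants were Hsal_03536 (0.930), Hsal_00899 (0.902), Hsal_02808 (0.867), Hsal_02259 (0.853) and Hsal_09540 (0.834), and the most unlike were Hsal_01315 (-0.895), Hsal_00031 (-0.804) and Hsal_08533 (-0.741). They were selected from 8238 rows for this measure, the ants fall into the 2 sets that define the split, and both values of an ant come from 1 library, so the correlations are a description.

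The 5 rows shared their extremes among the high gamergates, while the order of the ants in between differed from row to row. Gamergate 10, with the most Hsal_10714, also had the most of each: 141 RPKM of Hsal_03536, 26.3 of Hsal_00899, 44.2 of Hsal_02808, 25.5 of Hsal_02259 and 80.2 of Hsal_09540. Gamergate 7, with the least Hsal_10714 of the high set, had the least of each among high gamergates, at 1.93, 0, 0.438, 2.02 and 0.986 RPKM for the same rows. Within the 8 high gamergates alone, Pearson's r with Hsal_10714 on the log2 scale was 0.963 for Hsal_03536, 0.986 for Hsal_00899, 0.928 for Hsal_02808, 0.948 for Hsal_02259 and 0.855 for Hsal_09540. Without gamergates 10 and 7, the ants farthest from the median, r was 0.818 for Hsal_03536, 0.956 for Hsal_00899, 0.625 for Hsal_02808, 0.807 for Hsal_02259 and 0.773 for Hsal_09540. No test is given, because these ants took part in the choice of the rows.

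Some of the 5 rows reached high levels in workers, where Hsal_10714 was low. Hsal_00899 reached 15.7 RPKM in a transition worker and 30.6 RPKM in a stable worker, above gamergate 10, and Hsal_02259 reached 27.0 RPKM in a stable worker, while no worker exceeded 1.80 RPKM of Hsal_10714. For the 21 other named rows, the correlation with Hsal_10714 within the 8 high gamergates was tested by exact permutation over all 8 ants. This test did not take batch into account. By Pearson's or by Spearman's coefficient, 0 passed an adjusted p of 0.05. Hsal_09096.2 had r = 0.573 and Hsal_01632 r = 0.345 there. With batch means removed, r was 0.668 for Hsal_09096.2 and 0.187 for Hsal_01632. Batch mattered more in some rows: r for Hsal_05445 was 0.169 before and 0.707 after the removal. Values with batch means removed were not tested.

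**Figure D5:**
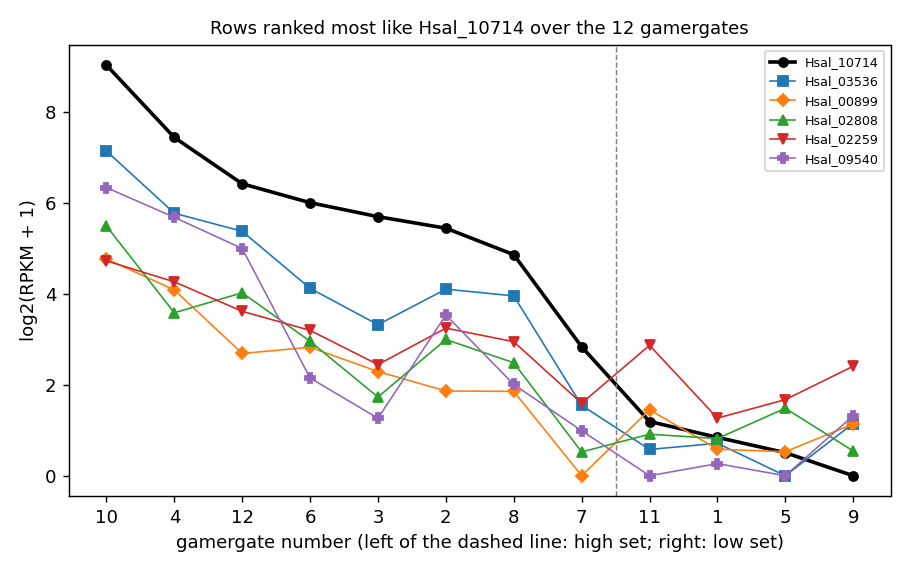
Levels on the log2(RPKM + 1) scale (vertical axis) of Hsal_10714 and of the 5 rows ranked most like it, in the 12 gamergates ordered by Hsal_10714 within each set (horizontal axis). The dashed line divides the 8 high gamergates on the left from the 4 low ones. All 5 rows have their highest value in gamergate 10 and their lowest value of the high set in gamergate 7.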

How the data were processed

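The authors deposited RPKM values, 1 column per ant for 33 ants from 47 sequencing runs (14 ants, those of batch C, had 2). Per the labels' protocols, libraries were strand-specific (dUTP) and primed with random hexamers. STAR 2.5.0b and, without a version, DESeq2 were used by the authors, per the submitters' processing notes; the genome build, annotation, counting method and merging of runs were not given in the sources used here. In the authors' deposited table, the comparison of gamergates against transition workers holds a log2 fold change and a p-value with its adjusted form, per the file headers; the sign was turned so that positive means higher in gamergates. No ID matched the reference gene table (0 matched).

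Gamergates were divided at 3 RPKM of Hsal_10714, a rule made, like the rows and lists described, with earlier results of these data known. Hsal_10714 was left out of the tested rows. Rows with a mean of 0.5 RPKM or more over all ants (11233) were tested on log2(RPKM + 1), which understates changes of low rows, with limma 3.58.1 (R 4.3.3; variance trend, batch term, two-sided, Benjamini-Hochberg over all rows), high against low in the 12 gamergates, and each set against transition workers in 1 fit of 33 ants. Named rows had the same sign in all 3 batches, a mean of 5 RPKM or more over gamergates and the smallest unadjusted p (10 higher, 10 lower); 4 rows came from earlier results, and 5 and 3 rows from the highest and lowest Spearman correlation, giving 29 rows, 3 of them under a pair of these rules.

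The RPKM values were whole multiples of 1 read: of 404997 values, 404997 came out whole within 0.01 reads, over 15320 rows above 0 in at least 2 ants. Depth was 3904943 to 11159675 reads in genes. limma's voom was run on these reads as an alternative. Scripts were tested on simulated data. No sequence or coordinate is given, since no genome of this species was used here.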

Additional observations from a re-analysis of the deposited data

Results flagged for a closer look

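Within a set, 3 of 70 groups of values held an ant that stood apart from the others by Dixon's test, which chance gives in about 1 of 20 groups. Hsal_10364 was at 15.1 RPKM in gamergate 6, the lowest of the high gamergates, with the others at 25.5 to 39.8 RPKM. In gamergate 5, 12031 gene rows were above 0, the lowest of the low gamergates, with the others at 12687 to 12805 rows. Gamergate 5 also had the highest share of reads in genes from Hsal_09096.2 among the low gamergates, 0.365%, with the others at 0.00407% to 0.0544%.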

How the results depend on the processing

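High against low gamergates gave 0 rows at an adjusted p under 0.05 in limma and in 27 of the alternatives with values here, among them each of the 12 fits without 1 gamergate (0 to 0), other pseudocounts, a filter at 2 RPKM, no batch term and single batches. As exceptions, the level of Hsal_10714 as a regressor gave 3 rows (Hsal_03536, Hsal_02808 and Hsal_17901) and no filter on low values gave 1 row (Hsal_14160). All 33 ants in one fit gave 2 rows (Hsal_07870 and Hsal_03536), with 1 spread per row taken from all sets, workers included. The cause of these exceptions was not tested. On recovered reads voom gave 0 rows. Of the planned count models, edgeR called none and DESeq2 called some rows, nearly all higher in high gamergates. The values of these 2 are not given here, and the deposited unit is RPKM for voom as well. For high gamergates minus transition workers the count of 39 became 20 without the batch term and ran from 19 to 63 without 1 ant, with over 1.5 times change also without gamergate 2 (21), gamergate 6 (23) or transition worker 2 (25), 6 (59) or 9 (21). For low gamergates minus transition workers the count of 0 became 3 with no filter on low values (Hsal_00307, Hsal_15998 and Hsal_18357) and 1 without gamergates 9 and 11 (Hsal_09095.2, -2.86 log2 units, adjusted p = 0.0147), an alternative chosen after seeing the data; without 1 ant it stayed at 0 to 0. No paired analysis was possible because high and low gamergates share no replicate number; same-numbered gamergates and transition workers deviated together by a correlation over 0.1 in 9 of 11 pairs (-0.281 to 0.641) and 4 gamergates correlated best with their own number, so not every pair was over 0.1, and the labels tie no number to a shared nest or day; the replicate block in the fit of all 33 ants gave 4 rows for high and 0 rows for low gamergates minus transition workers, and 0 for high against low. Of 870 values of named rows under alternatives, 5 changed sign: Hsal_04952 was -0.063 in batch B alone and -0.20 without gamergates 9 and 11, Hsal_09095.2 0.65 and 0.31 in the same settings, and Hsal_00899 -0.52 with the replicate block in the fit of all 33 ants. With 4 low gamergates, 1 or 2 per batch, a count of 0 does not show that the 2 sets are alike.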

Other observations

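The 6 rows that were lower in all 8 high gamergates than in all 4 low gamergates, counted in the report, include rows with little spread. Hsal_13165 averaged 2.75 ± 0.68 RPKM in high and 4.23 ± 0.29 RPKM in low gamergates (SD, n = 8 and 4), with transition workers at 2.79 ± 1.44 RPKM, close to the high set. Hsal_08533 averaged 15.9 ± 0.89 RPKM in high and 18.8 ± 1.42 RPKM in low gamergates, with transition workers at 16.7 ± 2.98 RPKM and stable workers at 19.7 ± 2.57 RPKM. On the other side Hsal_05720 averaged 6.06 ± 1.23 RPKM in high and 3.94 ± 0.14 RPKM in low gamergates, with transition workers at 7.19 ± 2.88 RPKM. These rows were picked after their values were seen, and none passed the adjusted limma test between high and low gamergates.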
